A study of Mus musculus with 4 samples.

Results

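A stretch of mouse chromosome 6 around Pianp and Eno2 was described gene by gene, in VISTA KO and WT myeloid cells sorted from MC38 tumors. The stretch was selected on 2 measured values, the VISTA KO over WT ratios of Pianp and Eno2, which are therefore given as a description. The genes are 10 of the 32285 in the deposited matrices, found by their symbols: Ptpn6, Eno2, Tpi1, Usp5, Cd4, Lag3, Ptms, Mlf2, Cops7a and Pianp, in their order along the chromosome. They span positions 124720707 to 125003096 of chromosome 6 in the GRCm38 build, by RefSeq's annotation.

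The study compared VISTA KO with WT bone marrow in chimeric mice of the strain given as C57/BL6. Mice of both groups were reconstituted for 6 weeks, then carried MC38 tumors, grown from a mouse colon carcinoma line, to a diameter of 9 to 10 mm. VISTA, encoded by Vsir on another chromosome, is an inhibitory receptor of the immunoglobulin superfamily. Each group is 1 library of viable CD11b+ cells, with 3′ ends of RNA counted per cell by unique molecular identifiers (UMIs), from tumors that had been pooled. CD45.1 and CD45.2 were used to tell WT from VISTA KO cells; which allele went with which marrow, the deleted part of Vsir, the number of mice and the host cells that remained are not given in the labels. With 1 library a group there is no test, intervals (95%) cover counting error only, and genotype cannot be told apart from any other difference between the 2 libraries.

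PIANP is a membrane protein best known from neurons and a ligand of PILRα, an inhibitory receptor of myeloid cells that recruits the phosphatase SHP-1, the product of Ptpn6. Eno2 encodes neuron-specific enolase and Tpi1 triosephosphate isomerase, both enzymes of glycolysis. Cd4 and its neighbor Lag3 encode related receptors of T cells that bind MHC class II, and Lag3 is also used by activated NK cells.

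The 300 bases around the starts of Pianp and Eno2, the members with the highest ratios, and of Tpi1 as a member between them, are shown so that the promoters can be compared. They are RefSeq sequences of build GRCm38.p6, from 250 bases before to 50 bases after the start, 5′ to 3′ on the gene's strand. Capitals mark ACGTG and GCGTG, the core of the hypoxia response element, searched on both strands.
Pianp: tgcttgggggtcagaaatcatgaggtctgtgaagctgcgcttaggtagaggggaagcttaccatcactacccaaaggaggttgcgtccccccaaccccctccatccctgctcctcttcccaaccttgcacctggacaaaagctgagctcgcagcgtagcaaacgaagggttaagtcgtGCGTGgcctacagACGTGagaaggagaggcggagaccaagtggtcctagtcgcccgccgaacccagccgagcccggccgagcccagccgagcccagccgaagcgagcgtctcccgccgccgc
Eno2: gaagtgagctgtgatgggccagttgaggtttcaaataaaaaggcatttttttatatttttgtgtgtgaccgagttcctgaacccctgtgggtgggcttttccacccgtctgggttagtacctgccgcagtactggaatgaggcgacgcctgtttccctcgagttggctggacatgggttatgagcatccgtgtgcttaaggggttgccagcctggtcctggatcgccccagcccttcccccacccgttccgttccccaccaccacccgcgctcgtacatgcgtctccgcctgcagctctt
Tpi1: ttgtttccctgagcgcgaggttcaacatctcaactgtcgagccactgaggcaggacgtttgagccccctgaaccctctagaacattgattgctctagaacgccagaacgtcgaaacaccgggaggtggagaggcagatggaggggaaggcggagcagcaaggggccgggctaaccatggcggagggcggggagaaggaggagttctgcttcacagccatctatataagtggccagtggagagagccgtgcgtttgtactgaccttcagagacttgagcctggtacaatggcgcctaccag
The Pianp promoter (chr6:124996470-124996769, plus strand) held 1 ACGTG and 1 GCGTG. The Eno2 promoter (chr6:124769624-124769923, minus strand) and the Tpi1 promoter (chr6:124814109-124814408, minus strand) held neither. Over all 27025 promoters of this length, 19.7% held ACGTG, 32.5% held GCGTG and 43.8% held at least 1 of them. The exact TATA box letters TATAAA, on either strand, were in 1 place in the Eno2 promoter, against 14.2% of all promoters. There they stood on the opposite strand and read TTTATA in the sequence shown. The Pianp and Tpi1 promoters did not hold the exact letters. The Tpi1 promoter held the near match TATATAAG on its own strand, which the search did not count. Among the other members with a promoter at hand, that of Mlf2 also held 1 ACGTG, while those of Ptms, Cops7a and Ptpn6 held neither core. The GC box letters GGGCGG stood 7 times in the Mlf2 promoter, 5 times in that of Ptpn6, 4 times in that of Ptms and 1 time each in those of Tpi1 and Cops7a, and in neither the Pianp nor the Eno2 promoter; 35.9% of all promoters held them. A promoter was at hand for 7 of the 10 genes; Cd4, Lag3 and Usp5 are named only.

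The VISTA KO library held 80366761 UMIs in 15257 barcodes, of which 15140 were kept, and the WT library 61753547 UMIs in 10241 barcodes, of which 10193 were kept. The median kept cell had 4212.5 UMIs in VISTA KO and 4692 in WT, and 47 barcode sequences occurred in both libraries. Vsir stood at 46.2 CPM (44.7 to 47.7; UMIs scaled to a total of 1000000 per library and class) in VISTA KO and 137 (134 to 139) in WT, so the library labelled VISTA KO held less but not none. Clustering named 6 classes with at least 100 cells in each library: NK cell-like (592 VISTA KO and 633 WT cells), macrophage-like (2940 and 1438), cDC2-like (672 and 456), mature DC-like (262 and 173), monocyte-like (3882 and 3631), and droplets with both neutrophil and macrophage RNA (783 and 1911). The cluster with the most cells of a class differed between the libraries: among macrophage-like cells it was cluster 6 (Ms4a7, Cd72) in VISTA KO, with 1453 of the 2940 cells, and cluster 5 (Mmp12 and the stress genes Mt2 and Hmox1) in WT, with 813 of 1438. Among monocyte-like cells it was cluster 3 (Ly6i, Hopx) in VISTA KO, with 1378 of 3882, and cluster 1 (Dmkn, Vcan) in WT, with 1676 of 3631. The class names were rebuilt here from markers, and 5752 VISTA KO and 1328 WT cells stayed unnamed.

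Pianp RNA was present in every compared class of VISTA KO cells and nearly absent from WT cells outside a single cluster. Summed over all kept cells, Pianp had 1302 UMIs in VISTA KO and 24 in WT, which is 16.2 CPM (15.4 to 17.1) and 0.389 CPM (0.249 to 0.579). That is a log2 ratio of 5.32 (4.80 to 6.03), or 40.1-fold; it was 3.35 with clusters weighted equally and 6.47 without clusters 2, 4 and 10, which are mostly VISTA KO cells. Eno2 had 804 UMIs in VISTA KO and 13 in WT, which is 10.0 CPM (9.34 to 10.7) and 0.211 CPM (0.112 to 0.360), a log2 ratio of 5.47 (4.79 to 6.49), or 3.11 with clusters weighted equally. The choice of the region used both ratios, so nothing is read from their size here; what follows is how they vary over the cells.

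Among the 6 compared classes of VISTA KO cells, the highest Pianp value was that of NK cell-like cells and the lowest that of monocyte-like cells. It stood at 25.5 CPM (19.95 to 32.1) in VISTA KO NK cell-like cells, against 0.399 (0.0101 to 2.22) in WT. In macrophage-like cells it stood at 19.95 CPM (17.8 to 22.3) in VISTA KO and 0.111 (0.0028 to 0.617) in WT. In the mixed neutrophil and macrophage droplets the levels were 17.6 CPM (15.02 to 20.6) in VISTA KO and 0.143 (0.0294 to 0.417) in WT. These 3 classes did not differ beyond their counting intervals in VISTA KO, and the 3 WT values rest on 1, 1 and 3 UMIs. The NK cell-like class also held 12 macrophage markers at a summed 7331 CPM in VISTA KO and 4905 CPM in WT, and at a finer clustering (resolution 2) a cluster with both NK cell and macrophage RNA, of 187 VISTA KO and 132 WT droplets, stood apart; their part in the Pianp level was not tested. cDC2-like cells followed with 17.0 CPM (13.003 to 21.7) in VISTA KO and 0.753 (0.0912 to 2.72) in WT. Mature DC-like cells had 13.8 CPM (8.65 to 20.9) in VISTA KO and no UMI in WT, at least 4.90-fold higher against a floor of 3 counts in the WT library. Monocyte-like cells were lowest in VISTA KO, with 7.44 CPM (6.15 to 8.91), against 0.0572 (0.00145 to 0.319) in WT. The interval of VISTA KO monocyte-like cells lay below those of all the other classes except mature DC-like cells, which it overlapped.

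Eno2 followed another order of classes in VISTA KO. It was highest in macrophage-like cells, at 18.2 CPM (16.1 to 20.4) in VISTA KO and 0.443 (0.121 to 1.13) in WT. The mixed droplets had 15.2 CPM (12.8 to 18.0) in VISTA KO and 0.238 (0.0771 to 0.554) in WT. In VISTA KO these 2 classes overlapped each other and lay above the other 4 compared classes. Mature DC-like cells had 6.91 CPM (3.45 to 12.4) in VISTA KO and 2.82 (0.581 to 8.23) in WT, from 11 and 3 UMIs, and there the intervals of the 2 libraries overlapped. NK cell-like cells had 5.67 CPM (3.24 to 9.20) in VISTA KO and no UMI in WT, at least 4.74-fold higher. Monocyte-like cells had 3.43 CPM (2.58 to 4.48) in VISTA KO and no UMI in WT, at least 20.01-fold higher. cDC2-like cells were lowest, with 1.91 CPM (0.770 to 3.95) from 7 UMIs in VISTA KO and none in WT, at least 1.69-fold higher. The last 4 classes overlapped their neighbors in this order; NK cell-like cells thus stood first for Pianp and behind macrophage-like cells for Eno2.

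**Figure D1:**
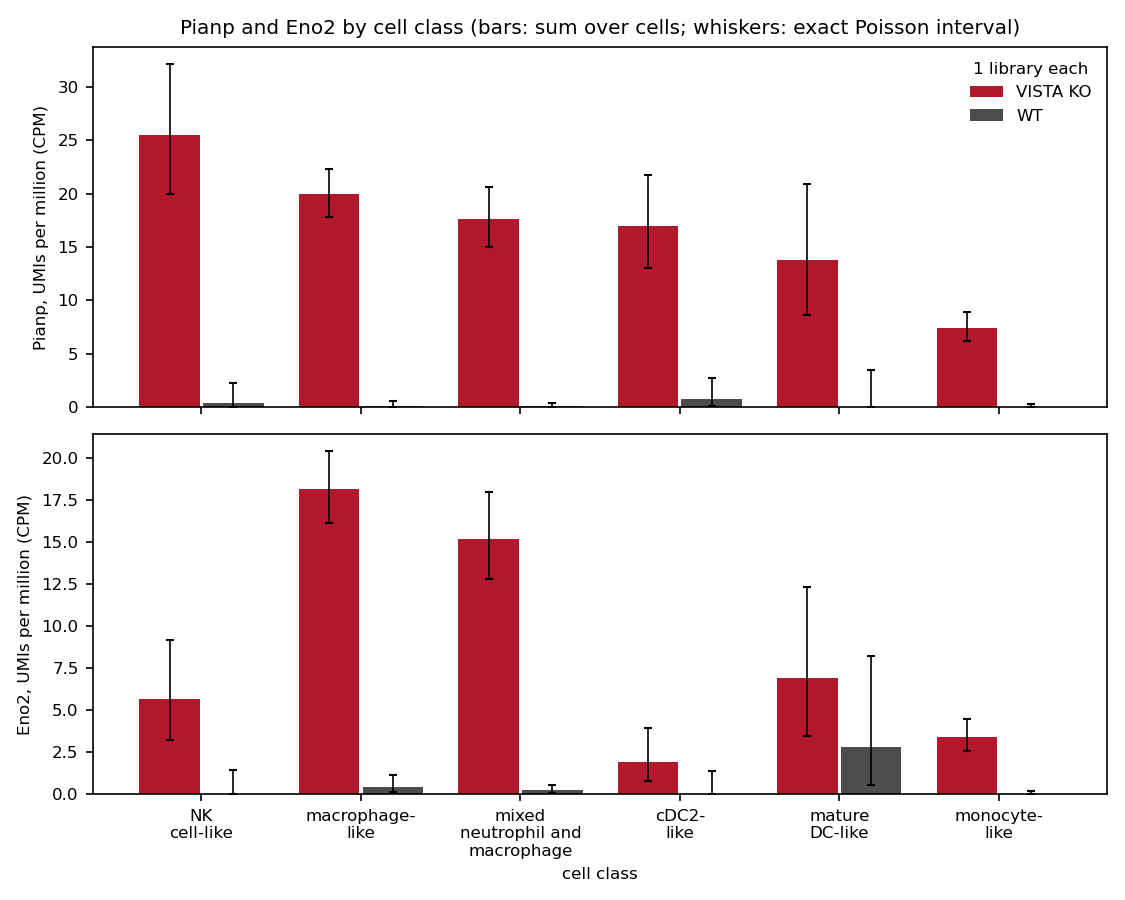
Levels of Pianp (top) and Eno2 (bottom) in CPM, by cell class, for VISTA KO (red, left) and WT (grey, right), 1 library each. Bars are sums over the cells of a class and whiskers exact Poisson intervals; VISTA KO bars run from 7.44 to 25.5 CPM for Pianp and from 1.91 to 18.2 CPM for Eno2, and the WT bars stay under 1 CPM except for Eno2 in mature DC-like cells (2.82 CPM).

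The small classes held few UMIs. Basophil or mast cell-like cells (90 VISTA KO and 47 WT) had 9 Pianp UMIs in VISTA KO and 0 in WT, and fibroblast-like cells (73 and 40) had 6 in VISTA KO and 0 in WT. For Eno2 these 2 classes had 8 and 2 UMIs in VISTA KO and 0 in WT. T cell-like cells (16 and 146) had 0 Pianp UMIs in VISTA KO and 1 in WT, and 2 Eno2 UMIs in VISTA KO and 0 in WT. Neutrophil-like cells (78 and 390), the class with the fewest UMIs a cell, had 1 Pianp UMI in VISTA KO and 0 in WT, and no Eno2 UMI in either library. The interval of the ratio included equality for Pianp in all 4 of these classes and for Eno2 in basophil or mast cell-like and fibroblast-like cells. For Eno2 in T cell-like cells it began at 0.90 on the log2 scale, from 2 UMIs in all.

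At the level of clusters, 15 had at least 100 cells in each library. Pianp was higher in VISTA KO in 15 of 15 and its interval left out equality in 14; the exception was cluster 4, of low-UMI droplets, with 18 UMIs in VISTA KO and 0 in WT. Eno2 was higher in VISTA KO in 15 of 15, with 13 intervals that left out equality. Clusters share their library, so these counts describe the 2 libraries and are not replicates. Pianp ranged from 3.81 to 25.5 CPM over the VISTA KO clusters and from 0 to 7.81 CPM over the WT clusters. Eno2 ranged from 1.42 to 29.7 CPM in VISTA KO and from 0 to 2.82 CPM in WT.

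The WT UMIs of Pianp were not spread evenly. Cluster 10, left unnamed and led by Lpl, Mgl2, Cxcl9, Itgax, Pdcd1lg2 and the MHC class II gene H2-Eb1, had 148 Pianp UMIs in VISTA KO and 15 in WT, which is 23.5 CPM (19.9 to 27.6) and 7.81 CPM (4.37 to 12.9). It held 994 VISTA KO and only 194 WT cells, yet 13 of the 22 WT cells with a Pianp UMI. The Pianp log2 ratio within it was 1.51 (0.82 to 2.46), while the interval of the macrophage-like ratio began at 5.004. None of the 22 WT cells carried a barcode found in both libraries. Vsir was detected in 14 of the 22, against 45.1% of all WT cells. Ifi202b, a chromosome 1 gene at 558 CPM in VISTA KO and 5.79 CPM in WT, was detected in 3 of the 22, against 74.8% of VISTA KO and 1.30% of WT cells. The 22 cells were also deep, with a median of 11148 UMIs.

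In single cells the share with a Pianp UMI was 7.51% (7.09 to 7.94, exact binomial interval) in VISTA KO and 0.216% (0.135 to 0.327) in WT. For Eno2 it was 4.73% (4.397 to 5.08) in VISTA KO and 0.118% (0.0608 to 0.206) in WT. After thinning each cell to 1000 UMIs, which left out 1561 VISTA KO and 561 WT cells, the Pianp share was 1.58% in VISTA KO and 0.0208% in WT, and the Eno2 share 1.05% in VISTA KO and 0.0415% in WT. Both genes were found together in 91 VISTA KO cells and in 0 WT cells. No class is known to lack these genes, so no class gave a background for free RNA; neutrophil-like cells had Pianp in 1.28% of VISTA KO cells at a median of 1392.5 UMIs. The summed level of 7 erythroid markers was 138 CPM in VISTA KO and 2.44 CPM in WT macrophage-like cells. In NK cell-like cells, which had the highest Pianp level, it was 0.354 CPM in VISTA KO and 3.59 CPM in WT.

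The remaining 8 genes, which lie between or beside Pianp and Eno2, differed far less. A gene was counted as higher or lower where it had at least 100 UMIs over both libraries, a ratio of at least 1.5-fold and an interval that left out equality. In all kept cells, 9 of the 10 genes had enough UMIs; 2 were higher, Pianp and Eno2, against 4.43% of all 11499 genes, and 1 was lower, Lag3, against 4.19%. Since Pianp and Eno2 chose the region, the 2 higher genes say nothing beyond that choice. The median log2 ratio of the 9 was 0.24, against 0.08 for all genes. Pianp and Eno2 are among the 9, so this median is in part set by the choice of the region. The other members with enough UMIs ran from -0.92 (Lag3) to 0.52 (Ptms).

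Within classes the same counts were small. In macrophage-like cells 2 of 8 were higher (Pianp and Eno2; 2.82% of all genes) and 0 lower (1.55%). In the mixed droplets 2 of 8 were higher (the same 2 genes; 4.33%) and 0 lower (1.75%). In monocyte-like cells 1 of 7 was higher (Pianp; 5.55%) and 0 lower (1.63%). Where Pianp and Eno2 had too few UMIs to enter, the counts were 1 higher of 5 in NK cell-like cells (Cops7a; 5.42%) with 0 lower (1.45%), 0 higher of 6 in cDC2-like cells (4.64%) with 0 lower (1.89%), and 0 higher of 4 in mature DC-like cells (5.66%) with 0 lower (1.94%). In these 6 classes, Cops7a in NK cell-like cells was the only gene beyond Pianp and Eno2 to pass, and it did not pass under every alternative setting.

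**Figure D2:**
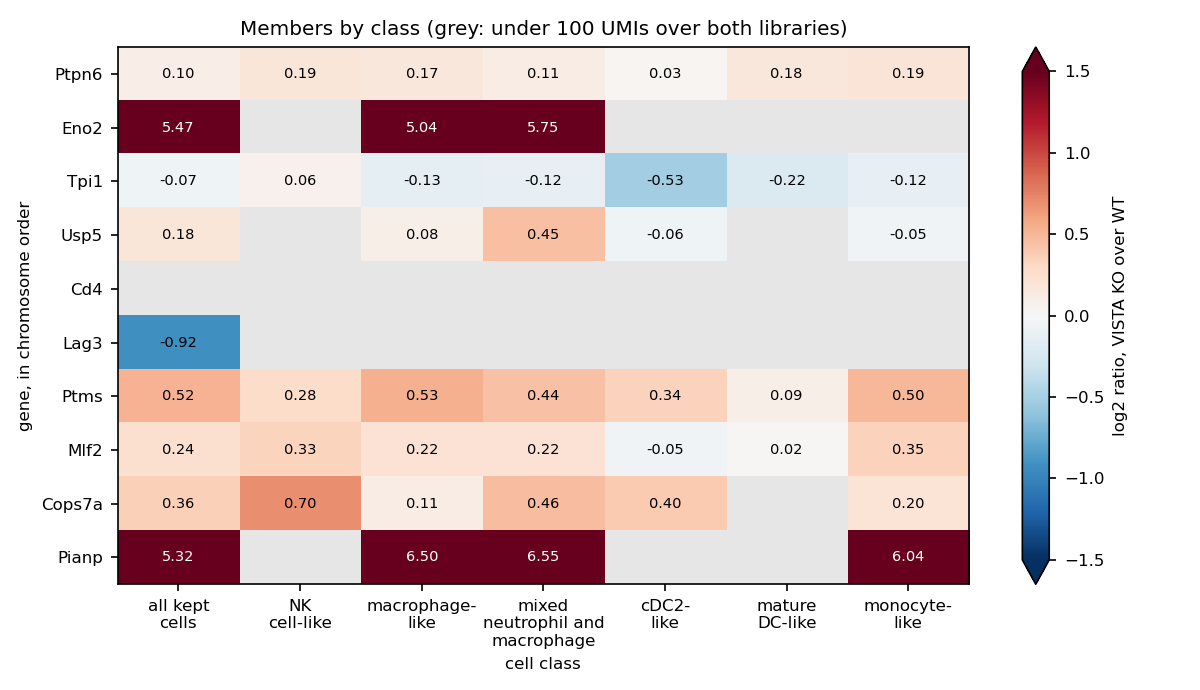
Log2 ratio of VISTA KO over WT for each of the 10 genes (rows, in chromosome order) in all kept cells and in 6 classes (columns), with colors cut at -1.5 and 1.5 and grey cells where a gene had under 100 UMIs. Where they are not grey, Eno2 and Pianp stand at 5.04 to 6.55, and the other genes run from -0.92 (Lag3) to 0.70 (Cops7a in NK cell-like cells). Where Pianp is grey its ratio runs from 3.93 (cDC2-like) to 5.02 (NK cell-like). Where Eno2 is grey its ratio runs from 1.00 (mature DC-like, interval -0.63 to 3.77) to 5.93 (monocyte-like).

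Cd4 and Lag3, the T cell receptors of the region, were lower in the VISTA KO library as a whole. Cd4 had 19 UMIs in VISTA KO and 79 in WT, which is 0.237 CPM (0.143 to 0.370) and 1.28 CPM (1.01 to 1.60), a log2 ratio of -2.38 (-3.24 to -1.70); with 98 UMIs in all it stayed under the minimum. Lag3 had 114 UMIs in VISTA KO and 166 in WT, which is 1.42 CPM (1.17 to 1.71) and 2.69 CPM (2.30 to 3.13), a log2 ratio of -0.92 (-1.28 to -0.57). T cell-like cells were 0.106% of VISTA KO and 1.43% of WT cells, and they held 72 of the 79 WT Cd4 UMIs and 85 of the 166 WT Lag3 UMIs. Over all kept cells the summed level of 10 T cell markers was 16.9 CPM in VISTA KO and 78.6 CPM in WT, with none of the 10 at 0 in either library. Of 13 other T and NK cell genes with enough UMIs, 8 were lower, against 4.19% of all genes, and 0 higher, against 4.43%. Their median ratio was -1.29 on the log2 scale. Among them Cd3e stood at 0.249 CPM in VISTA KO and 3.58 CPM in WT. Ctla4 stood at 0.822 CPM in VISTA KO and 11.3 CPM in WT, while Havcr2 and Fgl2 had the highest ratios (0.52 and 0.07).

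Within classes these 2 receptors did not separate the libraries. In T cell-like cells Cd4 was at 62.3 CPM (20.2 to 145) in VISTA KO and 90.1 CPM (70.5 to 113) in WT. Lag3 there was at 49.8 CPM (13.6 to 128) in VISTA KO and 106 CPM (84.9 to 131) in WT. Those VISTA KO values rest on 5 and 4 UMIs from 16 cells. In NK cell-like cells Lag3 had 37 UMIs in VISTA KO and 43 in WT, 13.1 and 17.1 CPM, with a log2 ratio of -0.38 (-1.06 to 0.28). Cd4 was detected in 33.6% of WT T cell-like cells (median 3714.5 UMIs) and in 0.158% of WT NK cell-like cells (median 2508). Without the T cell-like, neutrophil-like and mixed droplets, a choice made after seeing the data, 0 of the members were lower.

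Tpi1, which converts the triose phosphates of glycolysis into each other, lies between Eno2 and Pianp and was slightly lower in VISTA KO. It stood at 844 CPM (838 to 850) in VISTA KO and 884 CPM (877 to 892) in WT, a log2 ratio of -0.07 (-0.08 to -0.05). In macrophage-like cells it stood at 1156 CPM in VISTA KO and 1265 CPM in WT. The largest difference among the 6 compared classes was in cDC2-like cells, with 357 CPM (338 to 377) in VISTA KO and 515 CPM (488 to 543) in WT, a log2 ratio of -0.53 (-0.64 to -0.42), short of 1.5-fold. Over the 15 clusters the Tpi1 ratio ran from -0.53 to 0.06, and 9 intervals lay below equality. Outside the compared classes, neutrophil-like cells had 271 CPM in VISTA KO and 554 CPM in WT, a log2 ratio of -0.99 (-1.64 to -0.48) from 29 UMIs in VISTA KO and 293 in WT.

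Most listed enzymes of glycolysis had ratios nearer to that of Tpi1 than to that of Eno2. Of 20 listed genes, all with at least 100 UMIs, 2 were higher (Eno1 and Eno2), against 4.43% of all genes, and 0 lower, against 4.19%. Of these, Eno2 was used to choose the region. The median log2 ratio was -0.07, against 0.08 for all genes. Eno1, the enolase of most tissues, stood at 316 CPM in VISTA KO and 200.3 CPM in WT, a log2 ratio of 0.66 (0.63 to 0.69). Eno1b, a close copy of Eno1 with which reads may be shared, stood at 5.67 CPM in VISTA KO and 19.8 CPM in WT, a log2 ratio of -1.80 (-1.96 to -1.65); it was not on the list and was named after its values were seen. Eno3, the muscle enolase, stood at 6.89 CPM in VISTA KO and 9.19 CPM in WT, a log2 ratio of -0.42 (-0.59 to -0.24). Gapdh, which lies on the same chromosome 165 kb beyond the start of Pianp, had 2390 CPM in VISTA KO and 2998 CPM in WT, a log2 ratio of -0.33 (-0.34 to -0.32). Over the VISTA KO clusters, as a description over 15 points of 1 library, Eno2 levels varied with those of Tpi1 (Pearson r 0.76 on log2 of CPM plus 1), while Pianp varied less with Tpi1 (r 0.37) and with Eno2 (r 0.41).

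Ptms, which encodes parathymosin, a small acidic nuclear protein, had the highest ratio over all kept cells among the 8 members that did not choose the region. It stood at 331 CPM (327 to 335) in VISTA KO and 231 CPM (227 to 235) in WT, a log2 ratio of 0.52 (0.49 to 0.55), or 1.43-fold, just under the 1.5-fold limit. The ratio was 0.53 (0.46 to 0.60) in macrophage-like cells, from 364 CPM in VISTA KO and 253 CPM in WT. It was 0.50 (0.43 to 0.58) in monocyte-like cells, from 221 CPM in VISTA KO and 156 CPM in WT. In NK cell-like cells it was 0.28 (0.11 to 0.44), and in mature DC-like cells 0.09 (-0.04 to 0.23). Over the clusters Ptms was higher in VISTA KO in 14 of 15, with 12 intervals above and 1 below equality. It was counted as higher in 1 cluster, cluster 3 of monocyte-like cells, with 295 CPM in VISTA KO and 197 CPM in WT, a log2 ratio of 0.59. The cluster below was cluster 9, monocyte-like and led by Stxbp6, Add3 and Prtn3, with 131 CPM (118 to 145) in VISTA KO and 163 CPM (149 to 178) in WT. The summed level of the 12 macrophage markers was also higher in VISTA KO in all 6 classes. It ran from 2104 CPM in VISTA KO and 1224 CPM in WT cDC2-like cells to 23612 and 19522 CPM in macrophage-like cells. The part of these markers in the Ptms ratios was not tested.

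**Figure D3:**
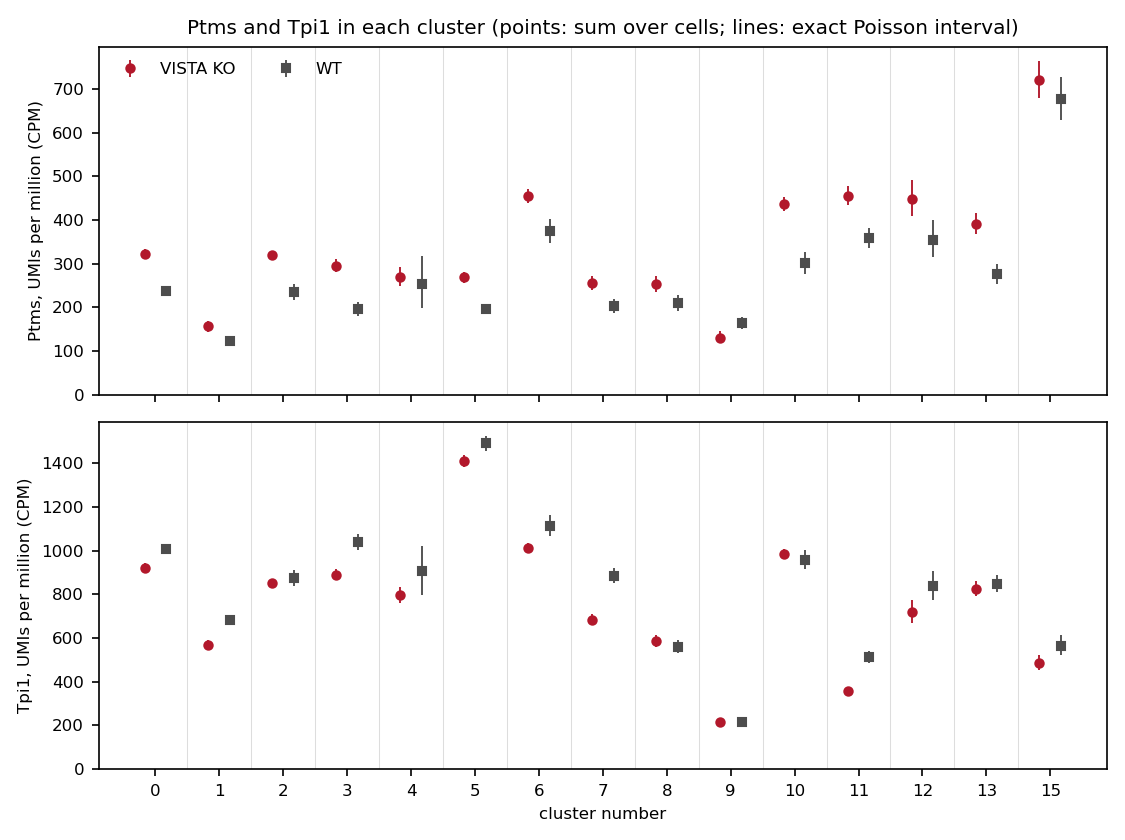
Levels of Ptms (top) and Tpi1 (bottom) in CPM in the 15 clusters with at least 100 cells in each library, for VISTA KO (red circles, left) and WT (grey squares, right), with exact Poisson intervals. Ptms is higher in VISTA KO in every cluster but cluster 9 (131 and 163 CPM), and Tpi1 is higher in VISTA KO in 2 of the 15.

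Usp5, a deubiquitinase that takes apart free ubiquitin chains, lies beside Tpi1. It stood at 21.1 CPM (20.1 to 22.2) in VISTA KO and 18.6 CPM (17.6 to 19.7) in WT, a log2 ratio of 0.18 (0.07 to 0.29). Its highest ratio among the compared classes was 0.45 (0.20 to 0.69) in the mixed droplets, and 1 of 15 cluster intervals lay above equality. Mlf2, myeloid leukemia factor 2, stood at 77.2 CPM (75.3 to 79.2) in VISTA KO and 65.2 CPM (63.2 to 67.3) in WT, a log2 ratio of 0.24 (0.19 to 0.30). Its ratio was 0.35 (0.22 to 0.47) in monocyte-like cells and -0.05 (-0.33 to 0.23) in cDC2-like cells, and 6 of 15 cluster intervals lay above equality. Neither gene reached 1.5-fold in any of the 6 compared classes where it had at least 100 UMIs.

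Cops7a encodes a subunit of the COP9 signalosome, a complex that removes NEDD8 from cullin ubiquitin ligases, and its annotated span overlaps the start of Pianp on the other strand. It stood at 22.6 CPM (21.5 to 23.6) in VISTA KO and 17.6 CPM (16.6 to 18.7) in WT, a log2 ratio of 0.36 (0.25 to 0.47). In NK cell-like cells it had 72 UMIs in VISTA KO and 39 in WT. These are 25.5 CPM (19.95 to 32.1) and 15.5 CPM (11.1 to 21.2), a log2 ratio of 0.70 (0.13 to 1.32), counted as higher. Over 9 settings this ratio ran from 0.15 to 0.71. Cops7a was not counted as higher in this class at the finer clustering, with each library clustered alone or without the deepest droplets. The finer clustering set a cluster with both NK cell and macrophage RNA apart. In the same NK cell-like cells the 12 macrophage markers summed to 7331 CPM in VISTA KO and 4905 CPM in WT, and the 12 neutrophil markers to 291 CPM in VISTA KO and 1055 CPM in WT; their part in the Cops7a ratio was not tested. In macrophage-like cells, which held 316 Pianp UMIs in VISTA KO and 1 in WT, the Cops7a ratio was 0.11 (-0.14 to 0.36). No source used here gives the strand setting of the counting, so reads of Pianp and Cops7a in their shared part may not be told apart. That part, from 124996720 to 124997903, lies at the start of both annotated spans, whereas 3′ ends of RNA were counted. How many reads fell there was not tested. Of the 10 listed COP9 subunits 0 were higher, against 4.43% of all genes, and 0 lower, against 4.19%, with a median of 0.05. Cops7a had the highest ratio, Cops7b followed at 0.19 (-0.01 to 0.39), and Cops3 (-0.07) and Cops4 (-0.08) were lowest.

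Ptpn6 closes the stretch on the side of Eno2. It stood at 259 CPM (255 to 262) in VISTA KO and 241 CPM (237 to 245) in WT, a log2 ratio of 0.10 (0.07 to 0.13), and from 0.03 in cDC2-like to 0.19 in NK cell-like and monocyte-like cells. In cluster 10, where WT cells held most of their Pianp, Ptpn6 stood at 253 CPM in VISTA KO and 186 CPM in WT, its highest cluster ratio (0.44). In fibroblast-like cells, too few for the compared classes, it had 93 UMIs in VISTA KO and 38 in WT, a log2 ratio of 0.87 (0.33 to 1.47). Pilra, which encodes the receptor that PIANP binds, stood at 109 CPM in VISTA KO and 114 CPM in WT, a log2 ratio of -0.07 (-0.12 to -0.02). Over 18 listed genes, namely inhibitory receptors, phosphatases with SH2 domains, Pilrb1 and Pilrb2, 3 were higher (Clec12a, Fcgr2b and Pecam1), against 4.43% of all genes. Siglece and Ceacam1, 2 of the 18, were lower, against 4.19%, and the median was 0.10. Fcgr2b stood at 647 CPM in VISTA KO and 342 CPM in WT, and Pecam1 had a log2 ratio of 0.66. Siglece stood at 5.99 CPM in VISTA KO and 10.5 CPM in WT, and Ceacam1 had a log2 ratio of -0.66.

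How far the difference reached along the chromosome was read from all genes with at least 100 UMIs. In the stretch from Ptpn6 to Pianp, 14 such genes lay, 9 of them members; 3 were higher (Eno2, P3h3 and Pianp), against 4.43% of all genes, and 2 lower (Cdca3 and Lag3), against 4.19%. Of the 3 higher genes, 2 chose the region; of the 5 genes that are no members, 1 was higher and 1 lower. P3h3, a collagen prolyl hydroxylase that is no member, had 121 UMIs in VISTA KO and 45 in WT, a log2 ratio of 1.03 (0.54 to 1.57). Cdca3, a cell division gene, had 181 UMIs in VISTA KO and 315 in WT, a log2 ratio of -1.18 (-1.45 to -0.91). The nearest genes outside were unlike Pianp and Eno2: beyond Pianp, Zfp384 was at 0.45, Ing4 at 0.35 and Acrbp at 0.25, and beyond Ptpn6, Phb2 was at -0.10, Emg1 at -0.19 and Lpcat3 at 0.07 on the log2 scale. In the stretch itself, 9 of the 14 genes were neither higher nor lower.

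Farther out, beyond Ptpn6, lay 2 more genes at least 4-fold higher, C1rb with an interval that overlapped those of Pianp and Eno2, and C1s1 with an interval below both. C1rb, a copy of the gene for complement protease C1r, had 345 UMIs in VISTA KO and 1 in WT, which is 4.30 and 0.0162 CPM, a log2 ratio of 7.06 (5.56 to 13.36). C1s1, for complement protease C1s, had 199 UMIs in VISTA KO and 25 in WT, which is 2.48 and 0.405 CPM, a log2 ratio of 2.56 (2.01 to 3.28). Unnamed cells held 132 of the 199 VISTA KO and 3 of the 25 WT UMIs of C1s1, and they were 5752 of the 15140 VISTA KO and 1328 of the 10193 WT cells. Within the unnamed cells the C1s1 ratio was 2.71 (1.54 to 5.41). In the mixed droplets it was 2.67 (1.51 to 4.28), from 21 UMIs in VISTA KO and 7 in WT. Both of these intervals left out equality. In macrophage-like cells the C1s1 ratio was 1.51 (-0.13 to 5.18) and in monocyte-like cells 0.98 (-0.05 to 2.18), intervals that included equality. NK cell-like, cDC2-like and mature DC-like cells each had only 2 C1s1 UMIs in VISTA KO and 0 in WT. The starts of C1rb and C1s1 lie 426 and 466 kb before that of Pianp. Both are uncertain as single genes, since each has a close copy beside it with which reads may be shared. The copy C1ra had 567 UMIs in VISTA KO and 351 in WT, a log2 ratio of 0.31 (0.12 to 0.51), and the copy C1s2, under the minimum, had 51 UMIs in VISTA KO and 1 in WT, a log2 ratio of 4.32 (2.75 to 10.62). C1rb was at 0 in WT macrophage-like and monocyte-like cells and had 54 and 47 UMIs in VISTA KO there, at least 10.3-fold and at least 17.4-fold higher.

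Cut into windows of 1 Mb, the window of chromosome 6 from 124000001 to 125000000 held 22 genes, of which 4 were at least 4-fold higher in VISTA KO: C1s1, C1rb, Eno2 and Pianp. Of 1852 such windows over the genome, 20 held any gene at least 4-fold higher, and the highest count in another window was 2, for hemoglobin genes or on chromosome X. Eno2 and Pianp chose the region, and without them the window held 2, as many as those windows. The window's median log2 ratio, with Eno2 and Pianp included, was 0.21. In the window before it 0 of 5 genes reached 4-fold, and in the one after it 0 of 18. From 123 to 127 Mb, 48 genes had enough UMIs, and 6 were higher, against 4.43% of all genes, and 8 lower, against 4.19%; Pianp and Eno2 are 2 of the 6. The remaining higher gene was Vwf (0.71), and the remaining lower ones were Clec4b1 (-0.67), Clec4d (-0.80), Cd27 (-0.90), Scnn1a (-1.60), Cd9 (-1.14) and Gm28809 (-0.85).

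**Figure D4:**
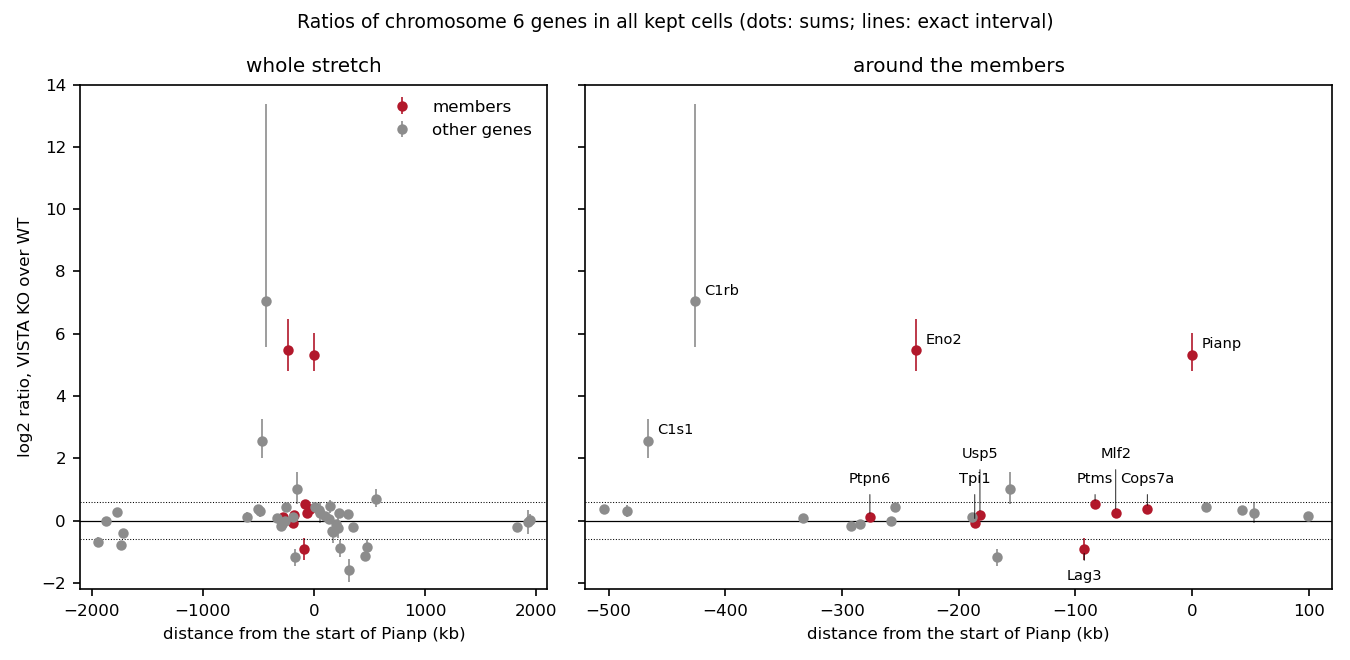
Log2 ratio of VISTA KO over WT in all kept cells for genes with at least 100 UMIs, against the distance of their start from that of Pianp in kb; red dots are members, grey dots other genes, lines exact intervals and dotted lines 1.5-fold. Pianp (5.32), Eno2 (5.47), C1rb (7.06) and C1s1 (2.56) stand far above neighbors that stay between -1.60 and 1.03.

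Among genes with at least 500 UMIs, those most like Pianp in their pattern lie elsewhere in the genome. The neighbors C1rb and C1s1 had fewer UMIs and could not be ranked. Over 30 points, the 15 clusters in each library, the highest Pearson r of log2 levels with Pianp was for Ppfia4 (0.92), Gm10076 (0.92), Camk2b (0.90), Rpl35 (0.89) and Fcrla (0.88). For Eno2 it was for Fcrla (0.90), Camk2b (0.86), Gm8797 (0.86), Gm42031 (0.86) and Pianp (0.86). The points come from 2 libraries, so any gene that differs widely between the libraries scores high: Ppfia4 had 3094 UMIs in VISTA KO and 38 in WT, and Fcrla 2032 and 46. Ppfia4 and Fcrla are chromosome 1 genes.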

How the data were processed

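The authors deposited UMI counts per gene and cell for each library, whole numbers that were not normalized. Per the submitters' processing notes, Cell Ranger and Seurat 4.0 were used with build mm10 (GRCm38); the matrix header names Cell Ranger 5.0.0. No source used here gives the strand setting or the calling of cells. The surface tags (3) were not used.

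Cells with at least 200 genes, 500 UMIs and at most 10% mitochondrial UMIs were kept. No doublet caller was used here; droplets with neutrophil and macrophage RNA were kept as a class of their own. Both libraries were clustered together with scanpy 1.11.5 (2000 variable genes per library, 30 principal components, 15 neighbors, Leiden resolution 1). Left out were the members, genes from 123 to 127 Mb of chromosome 6, Vsir, Xist, genes of the Y chromosome, and mitochondrial, ribosomal and cell cycle genes. Other genes of the X chromosome were not left out. A class was named from at least 3 of its markers, unless another type had more markers among the 10 leading genes of the cluster. A low-UMI cluster with none of its type's markers among those 10 genes also stayed unnamed. Clusters 4, 10 and 12 thus stayed unnamed with 5, 4 and 3 supporting markers of their best type.

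UMIs were summed per class and library and given as CPM with exact Poisson intervals. Log2 ratios are VISTA KO over WT with 1 UMI added to each sum; their intervals are exact conditional binomial ones without it. Shares carry exact Clopper-Pearson intervals. There is 1 library per group, so no test was run, and the 1.5-fold rule is a rule of size. The calculation was tested on simulated data. The members, markers and gene lists were chosen with earlier results of these data known. Named neighbors are those past the rule from 123 to 127 Mb and the 3 nearest on either side; named like genes are the 5 with the highest r among genes with at least 500 UMIs; lists name the 2 highest and 2 lowest ratios. Ifi202b, Eno1b, C1ra, C1s2, Pilra and the leading genes of clusters were named after their values were seen. Alternatives were another scaling, other minimums of UMIs, stricter cells, other clusterings, equal weights of clusters, leaving out the deepest droplets, thinning to 1000 UMIs and, chosen after seeing the data, leaving out shared barcodes or clusters.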

Additional observations from a re-analysis of the deposited data

How the results depend on the processing

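No paired analysis was possible because the design has 1 library per genotype. Of the log2 ratios of members recomputed under an alternative, 371 were within the counting interval of the reported value, 41 moved outside it, and 2 turned in sign among those whose interval had left out equality. Ratios whose interval included equality also crossed 0 under some alternative for Usp5, Mlf2 and Ptpn6 in cDC2-like cells, Mlf2 and Ptms in mature DC-like cells and Ptpn6 in NK cell-like cells. Weighting clusters equally gave log2 ratios of 3.35 for Pianp and 3.11 for Eno2 in all kept cells, and leaving out clusters 2, 4 and 10, mostly VISTA KO cells, gave 6.47 for Pianp. The count of members lower in all kept cells was 2 with a minimum of 20 UMIs or none, 0 with clusters weighted equally and 0 without T cell-like, neutrophil-like and mixed droplets; that last choice turned Tpi1 to 0.0085. In NK cell-like cells the count of higher members was 2 from 20 UMIs, 3 with no minimum, 2 with each library clustered alone (Tpi1 and Ptpn6), 0 at resolution 2 (where Ptms turned to -0.15) and 0 without the deepest 10% of droplets. From 20 UMIs it was 1 in cDC2-like, 1 in mature DC-like and 2 in monocyte-like cells. With no minimum it was 2, 1 and 2. In these classes and in NK cell-like cells, the only higher members that a lower minimum added were Pianp and Eno2. Both chose the region and entered almost wholly through VISTA KO UMIs, so these counts say nothing about their neighbors. The shares over all genes at these minimums are not given here. Without the deepest droplets, 1 member was lower in cDC2-like cells (Tpi1) and 1 higher in the mixed droplets (Usp5). In monocyte-like cells the count of higher members was 0 with the members kept in the clustering and 0 at resolution 2. The Pianp ratio itself ran from 4.39 to 6.44 in monocyte-like cells over 9 settings and did not turn in sign. Thinning turned the VISTA KO minus WT share of cells to 0.143 percentage points for Usp5 and 1.81 for Ptpn6. The cause of these changes was not tested, except that a lower minimum admits more genes. Cd4 is limited by depth, T cell-like cells by the 16 cells in VISTA KO, and neutrophil-like cells, where Tpi1 and Ptpn6 alone reached 100 UMIs, by both.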
